A study of Mus musculus with 2 samples.

Results

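The 4 ligands Vegfa, Vegfb, Vegfc and Pgf and the 6 receptors Flt1, Kdr, Flt4, Nrp1, Nrp2 and Tek were followed through the cells of aged mouse bone and marrow. They are 10 listed genes of the 32285 in the deposited count matrices, chosen by name, with earlier results of these data known. Their UMIs (unique molecular identifiers, each marking 1 captured transcript) were counted in 9573 barcodes with at least 200 genes and at most 20% mitochondrial UMIs, of 11056 deposited. The cells were live Lin-CD45- cells, that is, cells depleted of blood lineage markers and sorted without the leukocyte marker CD45, from the femur and tibia of untreated male INK-ATTAC mice aged 24 months. The INK-ATTAC transgene makes cells that switch on p16 sensitive to a drug that kills them, and no drug was given to these animals. Cells of 3 mice were pooled. The deposit holds 2 count matrices that are labelled as replicates 1 and 2, but they hold the same cells and are treated as 2 lanes of 1 sample. No value therefore has a replicate of the animal, there is no younger or treated group here, and no test between samples was possible.

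Vascular endothelial growth factors are secreted proteins that drive the growth and upkeep of blood and lymphatic vessels. VEGF-A binds the receptor tyrosine kinases VEGFR1 (Flt1) and VEGFR2 (Kdr), VEGF-B and placental growth factor (Pgf) bind VEGFR1, and VEGF-C binds VEGFR3 (Flt4) and VEGFR2. Kdr carries most of the growth signal, Flt1 holds ligand tightly with weaker kinase activity, and the neuropilins Nrp1 and Nrp2 are coreceptors that also bind class 3 semaphorins. Tek encodes TIE2, the receptor of the angiopoietins, which steadies mature vessels. In marrow, sinusoidal and arteriolar endothelium lies against perivascular stromal cells that express the leptin receptor (Lepr) and the chemokine Cxcl12.

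The receptors Flt1, Kdr and Tek had their highest level in the same class of cells, and the 250 bases before the start of each are shown to set their upstream sequence side by side. They come from the RefSeq promoter table on GRCm38.p6, in which all 10 genes were found, and are written 5′ to 3′ on the strand of the gene. Capitals mark GGAA or its reverse complement TTCC, the core letters of the motif bound by ETS factors, a family with several members active in endothelium.
Flt1, chr5:147726012-147726261, minus strand: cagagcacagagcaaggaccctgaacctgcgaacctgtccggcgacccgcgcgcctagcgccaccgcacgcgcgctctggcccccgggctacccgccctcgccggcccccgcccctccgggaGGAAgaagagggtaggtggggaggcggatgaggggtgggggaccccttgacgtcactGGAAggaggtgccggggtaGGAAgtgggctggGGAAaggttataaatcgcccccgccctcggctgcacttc
Kdr, chr5:75978456-75978705, minus strand: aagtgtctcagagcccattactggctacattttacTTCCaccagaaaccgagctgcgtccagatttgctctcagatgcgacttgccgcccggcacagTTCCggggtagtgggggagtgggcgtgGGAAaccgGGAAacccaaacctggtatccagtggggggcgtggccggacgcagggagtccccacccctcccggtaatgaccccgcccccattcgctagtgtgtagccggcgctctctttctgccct
Tek, chr4:94739039-94739288, plus strand: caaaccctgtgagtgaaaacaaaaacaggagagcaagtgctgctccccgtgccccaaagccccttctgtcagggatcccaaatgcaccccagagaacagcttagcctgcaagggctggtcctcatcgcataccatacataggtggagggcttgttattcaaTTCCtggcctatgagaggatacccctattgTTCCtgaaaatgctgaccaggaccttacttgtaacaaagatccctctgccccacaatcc
Flt1 and Kdr each held 4 of these cores and Tek held 2. Among the 27025 promoters of the table, 93.4% held at least 1 on either strand in the same 250 bases with a median of 3.0, and 33.4% held at least 4, so the number in these 3 windows is common. The longer letters CAGGAAG and CCGGAAG, searched on both strands, occur in 10.5% and 7.05% of all such windows and in none of the 3. Flt1 held a TATAAA whose first base lies 31 bases before the start (position -31). Of all such windows, 13% hold these letters at any position on either strand, and no share was computed for that position. A match describes these letters and is not evidence of binding.

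Lane 1 held 116827845 UMIs and lane 2 held 120556381. The lanes shared 10928 barcodes, and their UMI totals per shared barcode had a correlation of 0.999858, and the squared difference of their counts, summed over cells and genes, was 0.559 of the sum of the counts, where independent counts would give 1. They differed by less than sampling noise, so they were counted as 1 sample and summed. The labels do not use the word lane. The LEPR stromal class holds cells with at least 1 Lepr UMI and at least 5000 CPM (a gene's UMIs as counts per 1000000 UMIs of its class or cell) of Cxcl12 that lay outside the other classes. Fibroblasts, megakaryocytes and erythroid cells are clusters named from marker lists, with the 10 genes and 50 related ones left out of the clustering. No cluster was named endothelial, and the endothelial class therefore holds barcodes with at least 3 of 14 endothelial markers and at least 1000 CPM of them, a rule chosen after the clusters were seen. The classes held 1872 LEPR stromal cells, 135 fibroblasts, 55 endothelial cells, 105 megakaryocytes and 6414 erythroid cells, while 987 barcodes fell in none and 5 that met the stromal gate inside another class were set aside. Their median summed depths were 5180.5, 8505, 3312, 7664 and 28811 UMIs per cell, so an erythroid cell had a far better chance of showing a rare transcript than an endothelial cell. All 12 LEPR stromal markers, all 13 fibroblast, all 13 megakaryocyte and all 14 erythroid markers had a UMI in at least 10% of the cells of their class, as did 13 of the 14 endothelial markers. The same lists, or Lepr and Cxcl12 from them, set or named the classes, so these counts are no independent check. The endothelial cells also carried 4041 CPM of the LEPR stromal list. The 5 of its 12 markers seen in at least 10% of these cells were Cxcl12 at 3068 CPM, Kitl at 479 CPM, Lpl at 252 CPM, Gas6 at 145 CPM and Ebf3 at 58.1 CPM, while Lepr and Adipoq stood at 4.84 CPM each and Pdgfrb, Il7 and Hp at 0. The erythroid list summed to 3755 CPM there with none of its 14 markers at 0, led by Hbb-bs at 1331 CPM, Hba-a1 at 963 CPM and Aqp1 at 639 CPM. The fibroblast list summed to 1989 CPM with 6 of its 13 markers at 0, and most of it was Ly6a at 1394 CPM and Cd34 at 450 CPM, both also known on endothelium. The megakaryocyte list summed to 939 CPM, the plasma cell list to 673 CPM, the pericyte list to 310 CPM and the osteoblast list to 9.68 CPM. The macrophage list was at 0. What part these transcripts play in the endothelial values was not tested. Gene positions are from the GENCODE M21 annotation of GRCm38. Exact 95% intervals follow the values in parentheses, use the mean of the lanes for CPM because a transcript can be counted in both, and cover counting error only.

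The ligands Vegfa, Vegfc and Pgf were highest in a different class from the receptors Flt1, Kdr, Flt4 and Tek. The receptors Nrp1 and Nrp2 were highest in the same class as these ligands. Of the 10 genes, 5 had their highest CPM in LEPR stromal cells (Vegfa, Vegfc, Pgf, Nrp1 and Nrp2), 4 in endothelial cells (Flt1, Kdr, Flt4 and Tek) and 1 in erythroid cells (Vegfb). Among 11127 genes with at least 20 UMIs in their highest class, 38.7% were highest in LEPR stromal cells, 6.27% in endothelial cells and 27.1% in erythroid cells. The endothelial cells held only 0.089% of the UMIs of the kept barcodes, so a gene reached 20 UMIs there only at a high level. Flt4, at 6 UMIs in endothelial cells, falls under that minimum and was counted by its level alone. These are transcripts: neither secreted ligand nor receptor signalling was measured, so the words sender and receiver apply to RNA only.

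**Figure D1:**
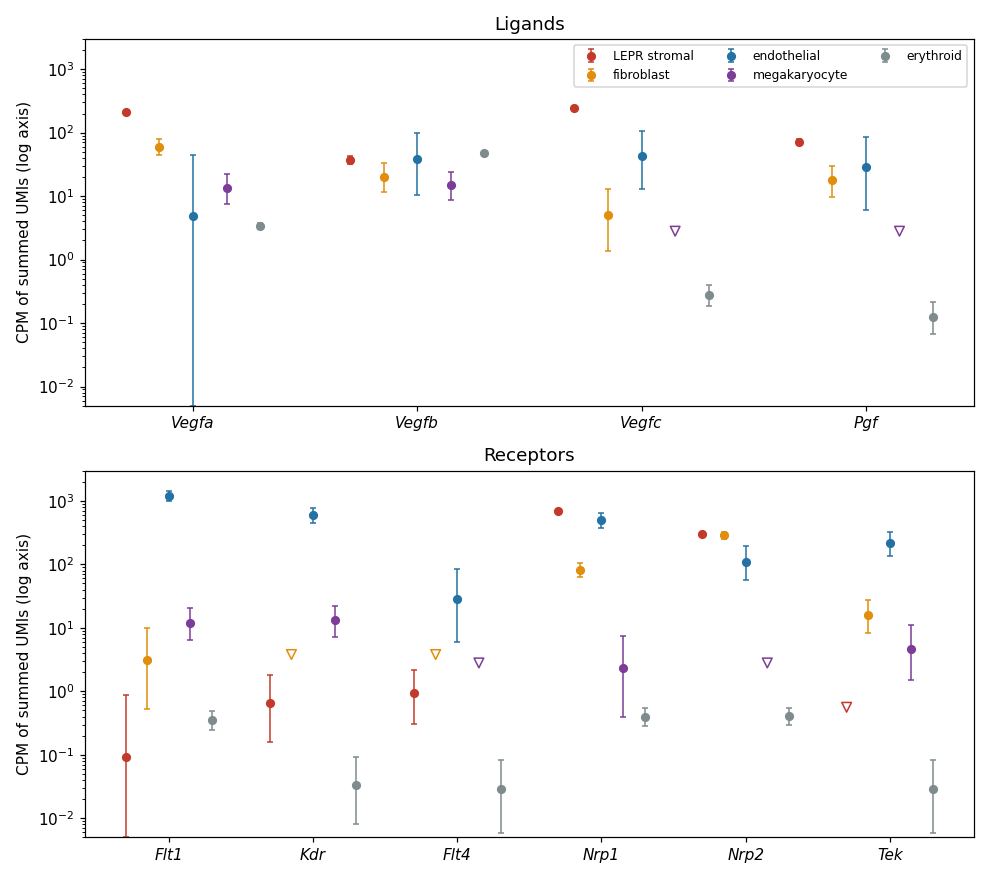
Level of each ligand (top) and receptor (bottom) in 5 classes, as CPM of summed UMIs on a log axis, with exact 95% Poisson intervals from the mean of the lanes. Open triangles mark classes with 0 UMIs and stand at the limit that a count of 0 allows, and intervals of 1 UMI run below the axis. Vegfa, Vegfc and Pgf are highest in LEPR stromal cells, while Flt1, Kdr, Flt4 and Tek are highest in endothelial cells.

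Vegfa (ENSMUSG00000023951, chr17:46016993-46032369, minus strand, GRCm38), the main driver of vessel growth, had 1099 UMIs in lane 1 and 1140 in lane 2 in LEPR stromal cells, or 209 CPM (197 to 222). Fibroblasts had 47 and 48 UMIs, or 60.2 CPM (44.3 to 79.9), and megakaryocytes had 13 and 16, or 13.5 CPM (7.49 to 22.5). Endothelial cells showed 1 UMI in lane 1 and 0 in lane 2, or 4.84 CPM (0.00475 to 45.2), and erythroid cells 332 and 381, or 3.41 CPM (3.07 to 3.79). The level was 3.48-fold higher in LEPR stromal cells than in fibroblasts (2.6 to 4.75) and 61.3-fold higher than in erythroid cells (54.4 to 69.3). The endothelial value lies within counting error of the megakaryocyte and erythroid ones. At least 1 Vegfa UMI was seen in 931 of 1872 LEPR stromal cells, 49.7% (47.4 to 52.0), in 40 of 135 fibroblasts, 29.6%, in 1 of 55 endothelial cells, 1.82%, and in 454 of 6414 erythroid cells, 7.08%. With each lane thinned to 1000 UMIs per cell, these shares became 18.6%, 6.78%, 0.433% and 0.482%, in the same order as the CPM except for endothelial and erythroid cells, where the endothelial value rests on 1 UMI.

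Vegfc (ENSMUSG00000031520, chr8:54077606-54187096, plus strand), the lymphatic and sinusoidal growth factor, was counted almost only in LEPR stromal cells. There it had 1265 and 1304 UMIs in the lanes, or 240 CPM (227 to 254), in 971 cells, 51.9%. Endothelial cells had 5 and 4 UMIs in 6 cells, or 43.6 CPM (13.1 to 106), and fibroblasts had 5 and 3 in 8 cells, or 5.07 CPM (1.38 to 13). Megakaryocytes had none, where a count of 0 allows up to 2.8 CPM, and erythroid cells had 28 and 30 UMIs, or 0.278 CPM. LEPR stromal cells were 5.51-fold above endothelial cells (2.26 to 18.4), 47.4-fold above fibroblasts (18.5 to 174), at least 85.7-fold above megakaryocytes and 865-fold above erythroid cells (599 to 1297). They held 91.8% of all Vegfc UMIs of the kept barcodes, against 4.61% of the UMIs of all genes.

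Pgf (ENSMUSG00000004791, chr12:85166635-85177790, minus strand), which encodes placental growth factor, followed the same order with wider intervals. LEPR stromal cells had 365 and 392 UMIs, or 70.8 CPM (63.8 to 78.3), in 403 cells, 21.5%. Fibroblasts had 15 and 13 UMIs in 13 cells, or 17.7 CPM (9.7 to 29.8). The endothelial value of 29.0 CPM (5.99 to 84.9) came from 6 UMIs of 1 cell, and the ratio of LEPR stromal to endothelial cells, 2.44, had an interval that includes 1 (0.828 to 11.9). Megakaryocytes had no UMI, and erythroid cells had 12 and 14, or 0.124 CPM.

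Vegfb (ENSMUSG00000024962, chr19:6982473-6987651, minus strand), which encodes a ligand of VEGFR1, was the exception among the ligands. Erythroid cells had 4923 and 5106 UMIs, or 48.0 CPM (46.7 to 49.4), and held 92.6% of its UMIs, close to the 90% of the UMIs of all genes that lay in this class. LEPR stromal cells had 207 and 195, or 37.6 CPM (32.6 to 43.2), which is 0.783 of the erythroid level (0.677 to 0.902). Endothelial cells, with 4 UMIs in each lane, stood at 38.7 CPM (10.5 to 99.1), which could not be told apart from either. Fibroblasts at 20.3 CPM (11.6 to 32.9) and megakaryocytes at 14.9 CPM (8.54 to 24.3) lay within counting error of each other. Without the 6 megakaryocyte barcodes that held endothelial markers, the megakaryocyte level was 26.8 CPM (14.8 to 44.6). Klf1, an erythroid transcription factor, stood in fibroblasts at 26.6% of its erythroid level, a ratio that would give 12.8 of the 20.3 CPM of Vegfb there. Its UMIs lay in 18 fibroblasts, 13.3% of the class. The Klf1 ratios of the other classes would give 3.71 CPM in LEPR stromal cells, 1.66 CPM in endothelial cells and 5.14 CPM in megakaryocytes. Which cells the Vegfb UMIs of these classes came from was not tested. The share of cells with a UMI was 49.3% in erythroid and 13.9% in LEPR stromal cells, but 4.34% and 3.55% after thinning to equal depth, so most of the gap in shares went with depth.

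**Figure D2:**
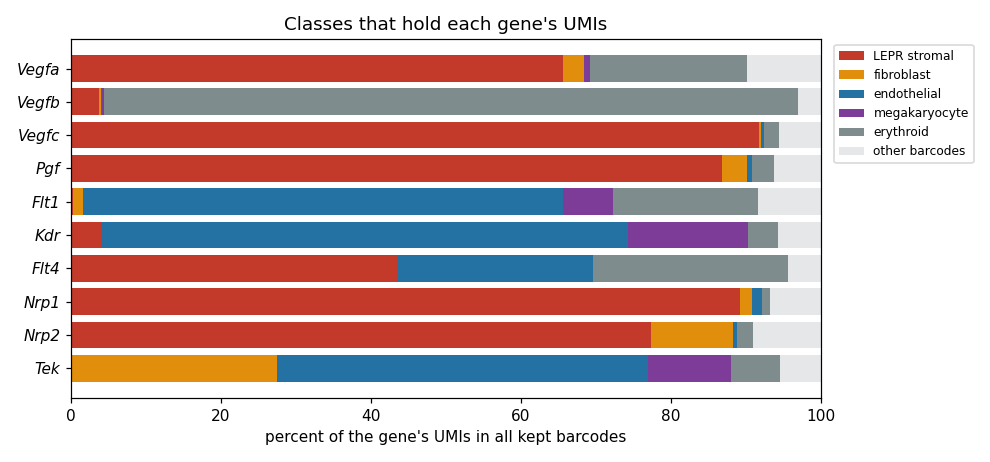
Percent of each gene's UMIs in all kept barcodes (horizontal axis) that fell in each class, with the remaining barcodes in light grey. LEPR stromal cells hold 91.8% of Vegfc UMIs with 4.61% of the UMIs of all genes, and the 55 endothelial cells hold 64.0% of Flt1 and 70.3% of Kdr with 0.089%, whereas the 92.6% of Vegfb in erythroid cells is close to their 90% of all UMIs.

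Flt1 (ENSMUSG00000029648, chr5:147561604-147726011, minus strand) had 128 and 117 UMIs in the 55 endothelial cells, or 1186 CPM (985 to 1415), and 42 of them, 76.4% (63.0 to 86.8), had a UMI. LEPR stromal cells, with 10695580 summed UMIs of all genes, held 1 Flt1 UMI. All 55 endothelial barcodes lay in a cluster of 917 that was named LEPR stromal, so this low level depends on the gates. In that cluster the 670 cells of the LEPR stromal class had no Flt1 UMI, 190 cells of no class had 6, or 10.2 CPM (2.1 to 29.7), and 2 barcodes that met both the stromal gate and the endothelial rule, and had been set aside, had 17. Kdr showed 1, 2 and 5 UMIs in the same groups. Fibroblasts had 2 and 3 UMIs, or 3.17 CPM, megakaryocytes 12 and 14, or 12.1 CPM (6.46 to 20.8), and erythroid cells 39 and 35, or 0.354 CPM. The endothelial level was 374-fold above that of fibroblasts (114 to 2279) and 97.7-fold above that of megakaryocytes (55 to 189), or 427-fold (97.9 to 6000) without 6 megakaryocyte barcodes that held endothelial markers. In the 156 cells of an endothelial cluster found at a finer resolution of 1.2, Flt1 was lower, at 582 CPM (485 to 693), as were Kdr at 290 CPM (223 to 371) and Tek at 107 CPM (67.6 to 160). Erythroid cells still held 19.3% of all Flt1 UMIs, spread over 49 of 6414 cells.

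Kdr (ENSMUSG00000062960, chr5:75932827-75978458, minus strand) had 61 and 62 UMIs in endothelial cells, or 595 CPM (456 to 764), in 35 of 55 cells, 63.6% (49.6 to 76.2). LEPR stromal cells had 4 and 3 UMIs in 6 cells, or 0.654 CPM (0.158 to 1.78), fibroblasts none, where a count of 0 allows up to 3.8 CPM, and erythroid cells 4 and 3, or 0.0335 CPM. Megakaryocytes had 14 in each lane, or 13.1 CPM (7.15 to 21.9). The endothelial level was 909-fold above that of LEPR stromal cells (319 to 3879) and 45.5-fold above that of megakaryocytes (25.2 to 88.1), or 322-fold (55.7 to 12918) without the same 6 barcodes. Megakaryocytes had the next highest level of both receptors, but their Flt1 level had a ratio to that of fibroblasts of 3.83 with an interval that includes 1 (0.969 to 25.8). Both megakaryocyte levels rested on the 6 barcodes, without which Flt1 there could not be told apart from the fibroblast level.

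Flt4 (ENSMUSG00000020357, chr11:49609263-49652739, plus strand), the VEGF-C receptor, was counted only 23 times in all kept barcodes. Endothelial cells had 4 and 2 UMIs in 6 cells, or 29.0 CPM (5.99 to 84.9), and LEPR stromal cells 4 and 6 in 10 cells, or 0.935 CPM (0.304 to 2.18). The ratio was 31.1 (4.82 to 160). Fibroblasts and megakaryocytes had none, with limits of 3.8 and 2.8 CPM. The level of this receptor was therefore at the edge of detection, and its intervals are wide.

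Tek (ENSMUSG00000006386, chr4:94739289-94874976, plus strand) had 21 and 24 UMIs in endothelial cells, or 218 CPM (137 to 328), in 22 of 55 cells, 40%. LEPR stromal cells had none, where a count of 0 allows up to 0.561 CPM, so the endothelial level was at least 388-fold higher. Fibroblasts were second, with 10 and 15 UMIs in 12 of 135 cells, or 15.8 CPM (8.31 to 27.4), which is lower than the endothelial level by 13.7-fold (6.6 to 30). Of the 14 endothelial markers 8 had no UMI in the fibroblasts, Cdh5 among them, and the other 6 summed to 75.4 CPM, of which Cav1 gave 48.2 CPM and Plvap 14.6 CPM. In endothelial cells the list summed to 9107 CPM. Megakaryocytes had 3 and 7 UMIs, or 4.67 CPM.

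The neuropilins were the only receptors with a high level in both stromal and endothelial cells. Nrp1 (ENSMUSG00000025810, chr8:128358604-128503363, plus strand) had 3605 and 3698 UMIs in LEPR stromal cells, or 683 CPM (661 to 705), in 81.6% of cells. Endothelial cells had 46 and 57, or 498 CPM (372 to 654), in 60.0% of cells. The ratio of 1.37 had a lower bound close to 1 (1.04 to 1.84), and the thinned shares were 46.3% and 38.8%, so the levels were close. Fibroblasts stood 8.29-fold lower than LEPR stromal cells (6.49 to 10.8) at 82.4 CPM. Erythroid cells and megakaryocytes were near 0, at 0.397 and 2.33 CPM.

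Nrp2 (ENSMUSG00000025969, chr1:62703285-62818695, plus strand), the neuropilin that pairs with VEGFR3, had 1592 and 1621 UMIs in LEPR stromal cells, or 300 CPM (286 to 315), and 224 and 228 in fibroblasts, or 286 CPM (250 to 326). These levels did not differ beyond counting error, with a ratio of 1.05 (0.912 to 1.21). Endothelial cells were lower, with 11 and 12 UMIs in 11 of 55 cells, or 111 CPM (56.6 to 197), and LEPR stromal cells stood 2.7-fold above them (1.52 to 5.32). With the 156 cells of the endothelial cluster at a resolution of 1.2, the endothelial level was 239 CPM (178 to 314) and the ratio 1.26, with an interval that includes 1 (0.952 to 1.69). Megakaryocytes had none. The fibroblast level was uneven: 36 of the 135 cells, in which the osteoblast list took a larger share than the fibroblast list, held 317 of the 452 UMIs and stood at 664 CPM. The 93 fibroblasts with neither osteoblast nor pericyte lists ahead stood at 128 CPM, and LEPR stromal cells were 2.35-fold above these (1.83 to 3.05). A single fibroblast held 53 of the UMIs.

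The counts of genes past a 4-fold difference were set beside all genes with at least 20 UMIs (mean of the lanes) over the pair of classes. Endothelial cells were at least 4-fold above LEPR stromal cells for 3 of the 9 genes tested, Flt1, Kdr and Tek, where 3.98% of 11462 genes passed. These 3 reached the minimum only with their endothelial UMIs, as did 112 of the 11462 genes, of which 90.2% passed, so the count says nothing about the members. The other 11350 genes reached it in LEPR stromal cells alone, and 3.13% of them passed. Flt4 had too few UMIs to be tested, as had the genes left out of each count that follows. The other counts carry the same limit where a gene reached the minimum only with the UMIs of the higher class. In the other direction 2 of 9, Vegfa and Vegfc, passed, against 6.14% of all genes, both through LEPR stromal UMIs. LEPR stromal cells were 4-fold above fibroblasts for 2 of 6, Vegfc (tested through its LEPR stromal UMIs) and Nrp1, against 6.89%, and fibroblasts above LEPR stromal cells for 0 of 6, against 3.2%. Erythroid cells were 4-fold above LEPR stromal cells for 0 of 7, against 8.24%. Against erythroid cells LEPR stromal cells passed for 5 of 7 genes, where 32.8% of all genes passed, and endothelial cells for 6 of 8, where 19.2% did. Pgf in the first count and Kdr and Tek in the second were tested only because of their level in the higher class, as were 1799 and 176 genes, of which 97.8% and 100% passed. Among the 12060 genes with enough erythroid UMIs alone, LEPR stromal cells passed for 4 of 6 members and for 23% of all, and endothelial cells for 4 of 6 and for 18%. With so few genes these counts are a description.

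The megakaryocyte values of the receptors rested on few barcodes. Of the 105 megakaryocytes, 6 held 3 or more endothelial markers, and these 6 carried 23 of 26 Flt1 UMIs, 26 of 28 Kdr UMIs, 9 of 10 Tek UMIs and 21 of 29 Vegfa UMIs, but 3 of 32 Vegfb UMIs. They also held 49.5% of the UMIs of all genes in the class, with a median of 207953.5 UMIs against 6942 in the other 99. Without them Flt1 in megakaryocytes went from 12.1 to 2.77 CPM (0.2 to 11.9), Kdr from 13.1 to 1.85 CPM (0.0468 to 10.3), Tek from 4.67 to 0.925 CPM and Vegfa from 13.5 to 7.4 CPM (2.02 to 18.9). Vegfb went the other way, from 14.9 to 26.8 CPM, and Nrp1 from 2.33 to 4.62 CPM. Of the 14 endothelial markers 9 had no UMI in any of the 105 cells, Cdh5, Emcn and Cldn5 among them. The other 5 summed to 144 CPM, most of it from Esam at 68.6 CPM, Pecam1 at 51.8 CPM and Egfl7 at 19.1 CPM, each with a UMI in at least 10% of the cells. Pecam1 and Esam are also known on platelets. The 6 barcodes were not the only ones with these markers: Esam was seen in 31 of the 105 cells and Pecam1 in 26. The 6 held 96 of 147 Esam UMIs, 50 of 111 Pecam1 UMIs and 20 of 41 Egfl7 UMIs, nearer to their 49.5% of all UMIs than their 88.5% of Flt1 UMIs and 92.9% of Kdr UMIs. Deep barcodes reach 3 markers more readily, so the 6 also stand apart by depth. Whether these barcodes hold a megakaryocyte together with another cell was not tested.

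Transcripts of the ligands were often seen together in LEPR stromal cells. Of the 1872 cells, 384 showed none of the 4 ligands, 692 showed 1, 551 showed 2, 208 showed 3 and 37 showed all 4. Vegfa and Vegfc were seen together in 521 cells, where 483 would be seen if they were independent of each other, and Vegfa and Pgf in 246, where 200 would be. Cells with more UMIs show more of every gene, so these excesses are not separated from depth. By contrast 1855 of the 1872 cells showed none of Flt1, Kdr, Flt4 and Tek, and none showed more than 1. Among the 55 endothelial cells, 5 showed none of these 4 receptors, 13 showed 1, 21 showed 2, 14 showed 3 and 2 showed all 4, while 43 showed none of the 4 ligands. Kdr and Nrp1, which act together on VEGF-A, were seen together in 27 endothelial cells, where 21 would be if independent. Flt1 and Tek were seen together in 17, where 16.8 would be, and Kdr and Flt4 in 3, where 3.82 would be. The endothelial numbers are not separated from depth either.

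**Figure D3:**
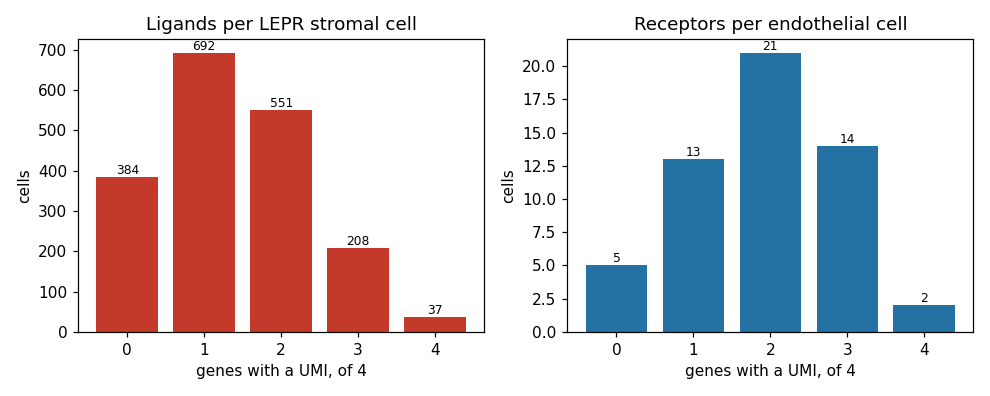
Number of cells (vertical axis) by how many of the 4 ligands had a UMI in LEPR stromal cells (left) and how many of Flt1, Kdr, Flt4 and Tek had a UMI in endothelial cells (right). The most common number is 1 ligand, in 692 cells, on the left and 2 receptors, in 21 cells, on the right.

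Within the LEPR stromal class, Vegfa and Vegfc varied in opposite directions along the adipogenic genes. Cells with at least 2000 UMIs were ranked by their share of UMIs from a gene list, and the 582 highest were compared with the 582 lowest. In the cells with the most UMIs of the adipogenic list (Adipoq, Lpl, Pparg and others) Vegfc was at 317 CPM and in those with the fewest at 154 CPM, a ratio of 2.06 (1.77 to 2.41). Vegfa was at 173 and 250 CPM, a ratio of 0.692 (0.596 to 0.803). Nrp1 went with Vegfc, with a ratio of 1.21 (1.11 to 1.32), and Nrp2 with Vegfa, with a ratio of 0.798 (0.703 to 0.905). The median depths of these cells were 6356.5 and 4438.5 UMIs, and the part of depth was not tested. The intervals for Vegfb and Pgf include 1.

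Vegfa also varied with the immediate early genes (Fos, Jun, Egr1 and others), which are known to rise quickly with stress and tissue digestion. It was at 284 CPM in the cells with the most of these UMIs and at 165 CPM in those with the fewest, a ratio of 1.72 (1.48 to 1.99), at nearly equal median depths of 5288 and 5416 UMIs. The ratios of Vegfc, 0.965 (0.841 to 1.11), Nrp1, 1.02 (0.943 to 1.11), and Nrp2, 0.991 (0.879 to 1.12), had intervals on both sides of 1. By the targets of hypoxia signalling (Slc2a1, Pgk1, Ldha and others), Vegfa was at 243 against 192 CPM, a ratio of 1.27 (1.09 to 1.47), and Nrp2 had the same ratio, 1.27 (1.12 to 1.45). The osteogenic list (Bmp4, Alpl, Spp1 and others) gave ratios of 0.815 (0.702 to 0.944) for Vegfa and 1.33 (1.15 to 1.53) for Vegfc. The part that tissue digestion or oxygen plays in the Vegfa level was not tested.

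**Figure D4:**
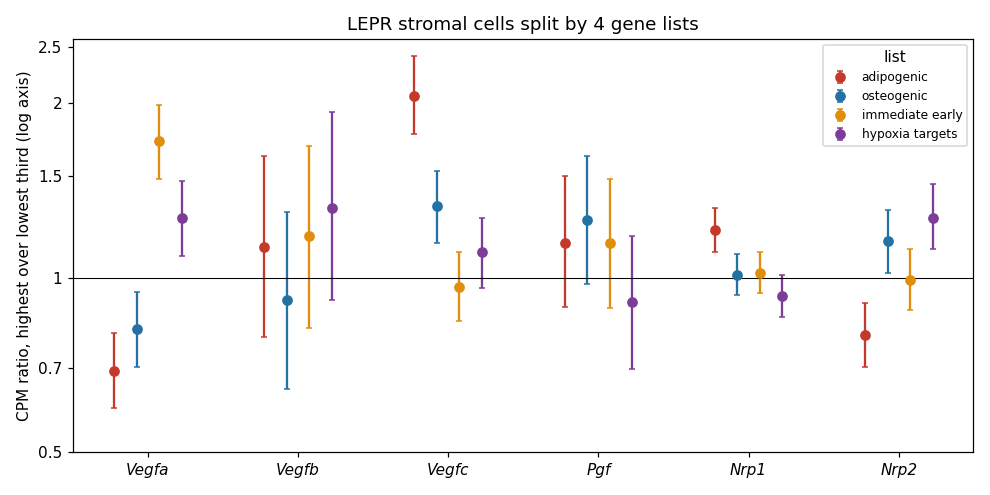
Ratio of CPM (log axis) between the 582 LEPR stromal cells highest and the 582 lowest in each of 4 gene lists, for the 6 genes counted often in this class, with exact 95% intervals. Vegfc is raised and Vegfa lowered along the adipogenic list, while Vegfa is raised along the immediate early and hypoxia lists.

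Vegfa and Vegfc also differed in opposite directions between the clusters that held most of the class. The 1066 LEPR stromal cells of the larger cluster had Vegfc at 280 CPM and the 670 of the other at 140 CPM, a ratio of 1.99 (1.71 to 2.34), whereas Vegfa was at 197 and 261 CPM, a ratio of 0.755 (0.664 to 0.86). Nrp1 was at 748 and 551 CPM, a ratio of 1.36 (1.25 to 1.47). Nrp2 was at 316 and 276 CPM, a ratio of 1.14 (1.02 to 1.29), on the other side of 1 from its ratio along the adipogenic list. The median depths were 6615.5 and 3650.5 UMIs, and the part of depth was not tested. The remaining 136 cells passed the gate in an unnamed cluster with a median of 1992.5 UMIs, where erythroid markers were the nearest list. There Vegfa was at 79.5 CPM against 214 CPM in the rest of the class, and Nrp1 at 275 against 697 CPM.

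Endothelial cells differed among themselves in Flt1, and less surely in Nrp1. The 14 cells with more UMIs of a list of sinusoidal genes (Stab2, Stab1, Emcn and others) had Flt1 at 609 CPM, and the 41 with as many or more of a list of arterial genes (Ly6a, Sox17, Gja4 and others) at 1408 CPM, a ratio of 0.432 (0.245 to 0.722). Nrp1 was at 226 and 603 CPM, a ratio of 0.375 (0.137 to 0.858), but the 14 cells had 3 Nrp1 UMIs in lane 1 and 10 in lane 2. Lane 1 alone gave 106 CPM and a ratio of 0.181 (0.0359 to 0.565), and lane 2 alone 342 CPM and a ratio of 0.553 with an interval that includes 1 (0.249 to 1.11). The Flt1 ratio was 0.452 in lane 1 and 0.411 in lane 2. Kdr, at 418 and 664 CPM, and Tek, at 139 and 248 CPM, had intervals that include 1. Stab2 was seen in 2 endothelial cells, Stab1 in 14 and Emcn in 25, and the 41 include any cell without a UMI of either list. The names of the lists therefore do not type the cells. Fibroblasts differed in Nrp2, which stood at 664 CPM in 36 cells that held a larger share of the osteoblast list than of the fibroblast list and at 128 CPM in 93 cells with neither osteoblast nor pericyte lists ahead, a ratio of 5.19 (3.87 to 7.02). Pgf in the same cells was at 37.7 and 9.69 CPM, a ratio of 3.89 (1.17 to 14.8). All 25 Tek UMIs of the class lay in these 93 cells. In 6 cells with pericyte markers ahead, Nrp1 was at 262 against 86.3 CPM.

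In erythroid cells both Vegfb and Vegfa were lower the more globin a cell held. From cells with under 0.5% globin UMIs to those with 6% or more, Vegfb stood at 70.2, 59.6, 48.8, 33.8 and 20.2 CPM over 5 bins of 1911, 793, 1629, 1502 and 579 cells. Vegfa stood at 6.86, 3.95, 2.88, 1.65 and 1.25 CPM. The median depths of these bins were 10551, 11102, 41618, 42139 and 33785 UMIs, and the part of depth was not tested. The levels of Vegfb in neighbouring bins had separate intervals, whereas those of Vegfa overlapped between 0.5 to 1% and 1 to 2.5% and between 2.5 to 6% and 6% or more. Vegfc showed no such order, at 0.29, 0.359, 0.234, 0.303 and 0.208 CPM. The erythroid Vegfa level was 15.2 times what the Adipoq ratio between erythroid and LEPR stromal cells would give, while those of Vegfc, Pgf, Nrp1 and Nrp2 were 1.08, 1.64, 0.544 and 1.27 times it. The counts of these 4 genes in erythroid barcodes thus stood near the level that Adipoq, a LEPR stromal gene, traces there. Lepr stood at 8.07 CPM in erythroid and 1574 CPM in LEPR stromal cells, a higher ratio than that of Adipoq, at 1.24 and 1154 CPM. By Lepr each of these multiples, that of Vegfa included, would be lower. Cxcl12, at 23.8 and 22244 CPM, had a ratio near that of Adipoq. Which cells the UMIs came from was not tested.

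**Figure D5:**
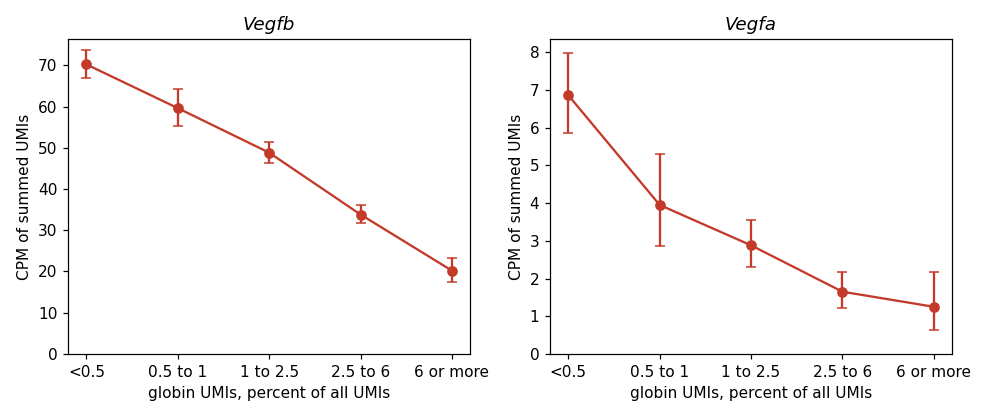
Vegfb (left) and Vegfa (right) in erythroid cells as CPM of summed UMIs (vertical axes, from 0) against the percent of UMIs from 4 globin genes (horizontal axis, 5 bins), with exact 95% intervals. Vegfb falls from 70.2 to 20.2 CPM and Vegfa from 6.86 to 1.25 CPM. Median depth also differs between the bins.

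The genes around these ligands and receptors were highest in several classes. Of 50 related genes outside the 10, 15 were highest in LEPR stromal cells (30%), 15 in endothelial cells (30%), 11 in fibroblasts (22%), 2 in megakaryocytes and 0 in erythroid cells, and 7 had under 20 UMIs in their highest class. Of all genes with at least 20 UMIs in their highest class, 38.7% were highest in LEPR stromal cells, 6.27% in endothelial cells, 10.2% in fibroblasts, 17.7% in megakaryocytes and 27.1% in erythroid cells. The share of the related genes in LEPR stromal cells was thus not above that of all genes. The shares of all genes leave out those under 20 UMIs, which the 50 include. Of the 8 angiopoietin and TIE genes, 5 were highest in LEPR stromal cells and 2 in endothelial cells. Angpt1, the activating ligand of TIE2, was at 195 CPM in LEPR stromal cells and 138 CPM in megakaryocytes, and Angpt2, its context-dependent antagonist, was at 71.1 CPM in LEPR stromal cells with no UMI in endothelial cells, where a count of 0 allows up to 29.0 CPM. Tie1, the orphan partner of TIE2, was at 237 CPM in endothelial cells and 28.5 CPM in megakaryocytes. Ptprb, the phosphatase that restrains TIE2, was at 1200 CPM in endothelial cells with no UMI in LEPR stromal cells. Svep1, an extracellular protein needed by lymphatic vessels, was at 269 CPM in LEPR stromal cells.

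Of the 3 genes for another VEGF ligand or VEGF-C processing, Ccbe1, which is needed to mature VEGF-C, was at 84.2 CPM (76.6 to 92.4) in LEPR stromal cells and 12.7 CPM in fibroblasts. Its partner protease Adamts3 was at 2.62 CPM in LEPR stromal cells and 2.05 CPM in erythroid cells. Vegfd, the other VEGFR3 ligand, was highest in fibroblasts at 15.2 CPM. Of the 12 class 3 semaphorins and plexins, which share the neuropilins with VEGF, 4 were highest in fibroblasts, 3 in LEPR stromal cells and 2 in endothelial cells. Sema3c at 115 CPM and Sema3d at 53.2 CPM had UMIs in fibroblasts alone among the 5 classes, and Sema3g was at 406 CPM in endothelial cells. Plxnd1 was at 290 CPM in endothelial and 188 CPM in LEPR stromal cells.

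Of 9 genes that endothelial cells use in the VEGF response, 3 were highest in fibroblasts, 2 in endothelial cells and 1 in LEPR stromal cells, and 3 had under 20 UMIs. Dll4 at 227 CPM and Nos3 at 106 CPM, the Notch ligand of tip cells and the endothelial nitric oxide synthase, were the endothelial ones. Esm1, known as an endothelial tip cell gene, went against its list, with 1073 CPM (1046 to 1101) in 1655 of 1872 LEPR stromal cells and 4.84 CPM, a single UMI, in endothelial cells. Of the 8 oxygen sensing genes, Epas1 was at 919 CPM in endothelial and 749 CPM in LEPR stromal cells, and Hif1a at 160 and 141 CPM. Of the 10 genes of other vascular pairs, 6 were highest in endothelial cells, among them S1pr1 at 721 CPM, Ramp2 at 547 CPM and Eng at 494 CPM.

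The genes whose levels followed each member most closely were found by the correlation of log2(CPM + 10) over 17 groups, the 16 clusters and the endothelial barcodes, among 11800 genes. Kank3 was closest to both Flt1 (0.995) and Kdr (0.992), Tcf15 to Flt4 (0.998), Cav1 to Tek (0.986), Bmp6 to Vegfc (0.995), Smo to Vegfa (0.984), Spry4 to Pgf (0.997), Itga1 to Nrp1 (0.996), Lifr to Nrp2 (0.993) and Uri1 to Vegfb (0.892). The groups share libraries and free RNA and have unequal depth, and Cav1 helped to choose the endothelial cells, so these values are descriptions. The endothelial barcodes alone gave 90.7% of the spread of Flt1 over the groups, 90.2% of that of Kdr, 93.4% of that of Flt4 and 85.2% of that of Tek, so any gene limited to these barcodes gives a high value. Without them the correlation was 0.862 for Flt1, 0.798 for Kdr, 0.752 for Flt4 and 0.879 for Tek.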

How the data were processed

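The authors pooled live Lin-CD45- cells of 3 mice, prepared droplet libraries that read transcripts from the 3′ end, and aligned and counted reads with Cell Ranger. The deposited values are UMI counts for every gene in every called cell, in 2 matrices labelled as replicates 1 and 2, and were not normalized. The submitters' processing notes name mm10, and the file header names software version 3.0.2. The matrices hold the same cells, so they were treated as lanes of 1 sample and summed per barcode instead of integrated.

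Clusters were made with Seurat 5.3.0 and sctransform 0.4.2 in R 4.3.3 from 3000 variable genes, 30 principal components and a resolution of 0.8. A marker counted for a cluster with a UMI in at least 10% of cells and a CPM of at least 25% of the highest cluster, and the list with the largest share found gave the name. A cluster stayed unnamed if under 3 markers were found, if its median depth was under the overall median divided by 3 without a marker among its leading 10 genes, or if at least 50% of its cells passed the Lepr and Cxcl12 gate while another list was nearest. The design had endothelial cells as a cluster. None formed at this resolution, so the marker rule replaced it. Scrublet in scanpy 1.11.5, at an expected rate of 8%, called 2.34% of barcodes doublets in either lane, which were kept. Sums and exact Poisson and Clopper-Pearson intervals used Python 3.11.15 with scipy 1.17.1, and limits for a count of 0 take 3 counts of the class total. Shares were thinned by their expectation at 1000 UMIs per lane, leaving out shallower cells (1745 of 1872 LEPR stromal and 43 of 55 endothelial cells remained in lane 1). The depth limits rare genes: a gene without a UMI in a cell cannot be called absent there. Ratios, intervals and fold calls were tested on simulated counts.

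The named genes are the 10 members, genes of 6 related lists and the closest gene of each member. The members and lists were chosen with earlier results of these data known. Alternatives were 10% mitochondrial UMIs, 500 genes, doublets left out, each lane alone, resolutions of 0.4 and 1.2, classes by cluster alone, 10000 CPM of Cxcl12, means of single cells, other thinning and other fold rules.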

Additional observations from a re-analysis of the deposited data

Results flagged for a closer look

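The 1483 barcodes that were left out (1482 for over 20% mitochondrial UMIs and 339 for under 200 genes, most of the latter for both) still held UMIs of 7 of the 10 genes above the 1.14 CPM that a count of 0 allows there. Vegfa stood at 13 CPM, Vegfb at 15.8 CPM, Vegfc at 4.2 CPM, Pgf at 1.53 CPM, Flt1 at 1.33 CPM, Nrp1 at 14.7 CPM and Nrp2 at 9.34 CPM. Kdr and Flt4 stood at 0.381 CPM and Tek at 0. Among these barcodes 19 passed the Lepr and Cxcl12 gate, with Vegfa at 147 CPM (61.4 to 296), Vegfc at 118 CPM (43.2 to 256) and Nrp1 at 392 CPM (240 to 606), and 2 passed the endothelial marker rule, with 1 Flt1 UMI.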

How the results depend on the processing

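Of the 36 recomputed ligand levels in LEPR stromal cells whose cells or counts changed, 34 stayed within the counting interval, as did 50 of 54 receptor levels in endothelial cells, where the interval of a gene with few UMIs is wide (Flt4 at 13.9 CPM stayed within it). A resolution of 0.4 left the LEPR stromal cells and a Cxcl12 gate of 10000 CPM the endothelial cells as they were, which tests nothing. With at least 10000 CPM of Cxcl12, which 1708 of the 1872 cells had, Vegfc rose to 255 CPM, and as a mean over single cells it was 221 CPM. At a resolution of 1.2 a cluster of 220 cells was named endothelial, 64 of which passed the Lepr and Cxcl12 gate and were left out. In the other 156 Flt1 was at 582 CPM, Kdr at 290 CPM, Nrp2 at 239 CPM and Tek at 107 CPM, and the cause was not tested. Nrp1, at 415 CPM there, stayed within its interval. At 0.4 no endothelial cluster formed, and the marker rule was not run there. Each lane alone gave Vegfa at 209 to 210 CPM, Vegfb at 35.9 to 39.4, Vegfc at 240 to 241 and Pgf at 69.4 to 72.1 in LEPR stromal cells, and Flt1 at 1113 to 1260 CPM, Kdr at 590 to 601, Flt4 at 19 to 39.4, Nrp1 at 453 to 542, Nrp2 at 108 to 114 and Tek at 207 to 228 in endothelial cells. The share of LEPR stromal cells with Vegfa was 49.7% without thinning and 9.8% at 500 UMIs per lane, and that of endothelial cells with Flt1 was 76.4% without thinning. With a 2-fold rule 1397 genes instead of 456 were higher in endothelial than in LEPR stromal cells, and 2060 instead of 704 the other way. With at least 100 UMIs 138 genes were higher in endothelial cells, among them Flt1, while Kdr and Tek were not tested. The rule of 5 endothelial markers, which 48 cells met, the megakaryocytes without 6 barcodes and the endothelial ratios in each lane were added after the data had been seen. No paired analysis was possible because the data hold 1 group, whose lanes share their cells. With 55 endothelial cells and 1 pooled sample, the receptor levels have wide counting intervals and no measure of variation between mice.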

Other observations

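The ligand levels were uneven among the clusters named erythroid. Vegfa ranged from 0.665 CPM (0.376 to 1.09) in a cluster of 1103 cells led by globin genes to 12 CPM (8.71 to 16.1) in a cluster of 1240 cells with a median of 5320.5 UMIs. Vegfb ranged from 29.3 CPM (21.6 to 39.0) in 393 cells to 75.7 CPM (68.8 to 83.0) in 521 cells. The 71 cells of a cluster named from plasma cell markers had Vegfb at 31.9 CPM (22.4 to 44.2), Vegfa at 11.1 CPM (5.82 to 19.1), Nrp1 at 12.4 CPM (6.79 to 20.8) and no Flt4 UMI.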
